A study of Mus musculus with 30 samples.

Results

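The ERK signalling output genes are 10 genes whose transcription follows the activity of the kinase ERK in many cell types. They are the feedback phosphatases Dusp4 and Dusp6, the pathway inhibitors Spry2, Spry4 and Spred1, the ETS transcription factors Etv4 and Etv5, and the early response genes Egr1, Fos and Ier3. The set was chosen with earlier results of these data known. Membership was decided by symbol alone, and each symbol had to be present in both RNA-seq count tables. They made up 10 of 55487 genes in the table of long-term cultures and 10 of 52630 genes in the table of the time course. All 10 passed the filter on low counts in both tables, which left 16054 and 16049 genes for testing.

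The cells were mouse embryonic stem cells (ESCs) of the line E14tg2a, 1 line throughout, with no genetic change named in the labels. In the long-term cultures, ESCs were kept in Serum/LIF, in EMM or in 2i/LIF and collected after 10 passages (P10) or 20 passages (P20), with 3 libraries for each of the 6 groups and 18 libraries in all. Serum/LIF is the standard medium with serum and the cytokine LIF, and EMM is that medium with galactose in place of glucose and pyruvate. 2i/LIF is a serum-free medium (N2B27) that holds LIF together with PD0325901, an inhibitor of the ERK-activating kinase MEK, and CHIR99021, an inhibitor of the kinase GSK3. MEK inhibition, GSK3 inhibition and the absence of serum therefore come together in 2i/LIF and cannot be told apart in these libraries. In the time course, ESCs in Serum/LIF (labelled 0 h) were set beside ESCs placed in EMM for 3, 9 and 24 h, with 3 libraries a time and 12 libraries in all. The labels also speak of 24 h in Serum/LIF for the control, so that the 0 h libraries may be a 24 h control.

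ERK is the last kinase of a cascade that runs from growth factor receptors through RAS, RAF and MEK. It induces early response genes such as Egr1 and Fos within minutes, and it also induces its own brakes, the dual-specificity phosphatases and the Sprouty and Spred proteins. In mouse ESCs the cascade is driven mainly by autocrine Fgf4 and moves cells towards differentiation, and MEK inhibition in 2i/LIF holds them in a naive state.

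Total counts ran from 6944904 to 27912928 per library in the long-term cultures and from 24074132 to 35301962 in the time course. The 3 libraries of a group were described by the study as biological replicates, and no 2 libraries of a group agreed within sampling noise. The pluripotency genes Pou5f1, Sox2 and Nanog, which define the labelled cells, had at least 15068, 3193 and 3380.2 normalized counts in every library. Normalized counts are counts scaled to the mean library of their experiment, so they compare samples for 1 gene, not genes with each other and not the experiments. Since RNA was measured in bulk, fewer cells that express a gene and less RNA per cell cannot be told apart.

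Promoters of members, taken from the RefSeq table (GRCm38.p6), are of interest because most members were lower in 2i/LIF than in Serum/LIF. Windows were searched for 6 of the 10 genes. The promoters of Dusp4, Spry4, Etv4 and Egr1 were not searched, so nothing is said of their motifs. The 250 bases before the start are shown for the phosphatase Dusp6, the inhibitors Spry2 and Spred1 and the early response gene Fos, 5′ to 3′ on the gene's own strand, with the capitals marking a TATA box (letters TATAAA).
Dusp6, chr10:99262981-99263230, plus strand: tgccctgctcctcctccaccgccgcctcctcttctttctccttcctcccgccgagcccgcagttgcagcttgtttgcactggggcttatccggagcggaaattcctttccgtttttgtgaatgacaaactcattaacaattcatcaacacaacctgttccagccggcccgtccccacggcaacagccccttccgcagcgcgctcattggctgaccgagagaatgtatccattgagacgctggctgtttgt
Spry2, chr14:105896820-105897069, minus strand: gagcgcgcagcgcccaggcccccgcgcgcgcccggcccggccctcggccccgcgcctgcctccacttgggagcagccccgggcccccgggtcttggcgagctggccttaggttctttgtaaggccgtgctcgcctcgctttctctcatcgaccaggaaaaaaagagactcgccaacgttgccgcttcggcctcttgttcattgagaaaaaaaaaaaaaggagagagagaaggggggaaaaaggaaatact
Spred1, chr2:117120821-117121070, plus strand: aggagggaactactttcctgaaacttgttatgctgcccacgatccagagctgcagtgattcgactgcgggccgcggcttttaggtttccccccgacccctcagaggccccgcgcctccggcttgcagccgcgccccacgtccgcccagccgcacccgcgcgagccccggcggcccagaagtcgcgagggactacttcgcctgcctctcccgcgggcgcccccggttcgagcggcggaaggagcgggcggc
Fos, chr12:85473640-85473889, plus strand: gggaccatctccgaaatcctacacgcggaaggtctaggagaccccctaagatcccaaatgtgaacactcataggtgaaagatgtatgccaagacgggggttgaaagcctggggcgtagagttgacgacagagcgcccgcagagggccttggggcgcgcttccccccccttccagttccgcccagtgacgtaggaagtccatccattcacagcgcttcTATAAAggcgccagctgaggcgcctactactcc
Over 7 windows of 300 bases (250 before to 50 after the start), 6 motifs were searched on both strands. The TATA box was found in Fos, 33 bases before the start, and 13.6% of all 32851 windows held these letters. The ETS core (letters CCGGAA) was found in Spry2, 33 bases after the start, and 14.9% of all windows held it. The AP-1 site TGANTCA, the CRE TGACGTCA, the Egr1 site GCGTGGGCG and the CArG box had no match in these windows, and 7.81%, 1.79%, 0.612% and 1.63% of all windows held them.

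Compared per length of exon, the members differed widely in level. In Serum/LIF at P10, Etv5 was the highest, with 103 ± 3.10 RPKM, which is reads scaled to exon length and library size (mean ± SD, n = 3), followed by Fos with 66.1 ± 11.1 and Spry2 with 52.5 ± 4.83. Dusp4, Dusp6, Egr1, Etv4, Spry4 and Spred1 lay between 14.5 and 25.7 RPKM, and Ier3 was the lowest at 8.77 ± 1.14. In 2i/LIF at P10 the order was headed by Etv5 (102 ± 13.3 RPKM), Fos (77.7 ± 28.2) and Egr1 (52.7 ± 4.21), while Dusp4 (1.08 ± 0.266) and Spry4 (0.771 ± 0.271) were last. At P20 in 2i/LIF, Egr1 was the lowest of the 10, at 0.113 ± 0.0732 RPKM.

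The first question was how the output genes stood under MEK inhibition. In 2i/LIF at P10, 7 of the 10 genes were lower than in Serum/LIF and 1 was higher at an adjusted p under 0.01 (edgeR's quasi-likelihood test, Benjamini-Hochberg adjustment over all genes tested), beside 25.6% lower and 26.4% higher of all genes tested. At P20, all 10 were lower and 0 higher by edgeR and by DESeq2, beside 23.2% lower and 21.0% higher of all genes tested by edgeR and 20.5% and 17.8% by DESeq2. Without any 1 of the libraries compared, the P20 count by edgeR was 8 to 9 of the 10. When the fold also had to exceed 1 in size on the log2 scale, 5 were lower and 1 higher at P10, beside 14.8% and 11.6% of all genes, and 8 were lower and 0 higher at P20, beside 15.5% and 6.77%. The median log2 fold change of the members was −1.32 at P10 and −1.27 at P20, and that of all genes tested was 0.02 and −0.01. The feedback genes Dusp4 and Spry4 had the largest falls at P10, 23.5-fold and 20.6-fold, whereas Etv5 and Fos did not pass the test and Egr1 was 2.44-fold higher.

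**Figure D1:**
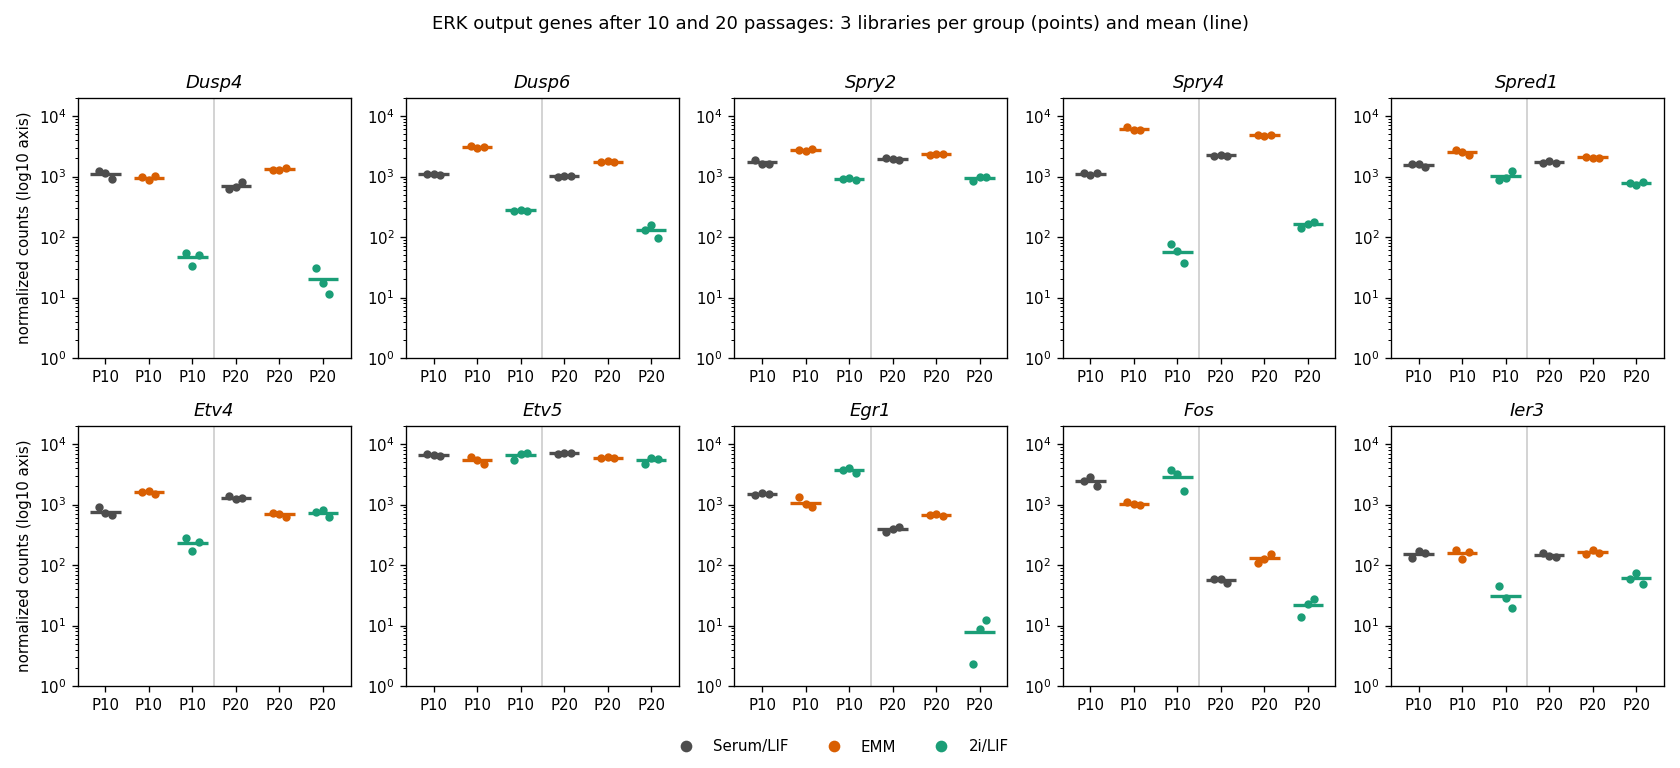
Normalized counts (log10 axis) of the 10 genes in the long-term cultures, with 1 point per library, 3 libraries per group and a line at each mean; grey is Serum/LIF, orange EMM and green 2i/LIF, and each panel has P10 on the left and P20 on the right. The green points of Dusp4, Dusp6, Spry2, Spry4, Spred1 and Ier3 lie below the grey and orange points at both passages, and those of Egr1 are the highest at P10 and the lowest at P20.

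The phosphatases remove phosphates from MAP kinases, Dusp6 from ERK in the cytoplasm and Dusp4 in the nucleus. Dusp4 (chr8:34807297-34819894, GRCm38) had 1246, 1156 and 900.0 normalized counts in Serum/LIF, 965, 876 and 1038 in EMM and 54.9, 33.4 and 50.5 in 2i/LIF at P10. At P20 it had 629, 665 and 803 normalized counts in Serum/LIF, 1303, 1289.7 and 1406 in EMM and 30.5, 17.7 and 11.5 in 2i/LIF. All 2i/LIF libraries lay far below those of both other media, without overlap. In 2i/LIF against Serum/LIF the log2 fold change of Dusp4 was −4.56 (edgeR adjusted p = 7.90e-13, SE 0.20) at P10 and −5.30 (edgeR adjusted p = 1.17e-12, SE 0.26) at P20. Genes of chromosome 8, where Dusp4 lies, had a median log2 fold change of 0.45 in the P20 comparison, and Dusp4 stood at −5.75 relative to that median.

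Dusp6 (chr10:99263231-99267489) had 1091, 1098 and 1076 normalized counts in Serum/LIF, 3145, 2975 and 3058 in EMM and 273, 280.3 and 274 in 2i/LIF at P10. The values at P20 were 979, 1003 and 1026 normalized counts in Serum/LIF, 1769, 1817 and 1711 in EMM and 129, 161 and 94.8 in 2i/LIF. The order EMM, Serum/LIF, 2i/LIF held at both passages with no overlap between the media. Its log2 fold change in 2i/LIF against Serum/LIF was −1.98 (edgeR adjusted p = 3.99e-11, SE 0.11) at P10 and −2.95 (edgeR adjusted p = 1.03e-12, SE 0.12) at P20.

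Sprouty proteins restrain the cascade between receptor and RAF, and Spred1 restrains RAS by recruiting neurofibromin. Spry4 (chr18:38586247-38601415), which overlaps Gm27369 and Gm27804 on the other strand (whether counting used strand is not given in the sources used here), had 1144, 1053 and 1146 normalized counts in Serum/LIF, 6581, 5893 and 5818 in EMM and 76.9, 58.1 and 36.7 in 2i/LIF at P10. At P20 it had 2188, 2279 and 2219.9 normalized counts in Serum/LIF, 4925, 4752 and 4848 in EMM and 143, 166 and 176 in 2i/LIF. Spry4 was highest in EMM and lowest in 2i/LIF at both passages, again without overlap. In 2i/LIF against Serum/LIF its log2 fold change was −4.37 (edgeR adjusted p = 8.49e-14, SE 0.16) at P10 and −3.76 (edgeR adjusted p = 1.24e-13, SE 0.12) at P20.

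Spry2 (chr14:105891947-105896819) followed the same order of media over a smaller range. It had 1891, 1622 and 1616 normalized counts in Serum/LIF, 2741, 2673 and 2804 in EMM and 907, 954 and 872 in 2i/LIF at P10. The P20 libraries had 1988, 1919 and 1896 normalized counts in Serum/LIF, 2268, 2352 and 2352 in EMM and 853, 970.1 and 970.3 in 2i/LIF. The 2i/LIF libraries lay below all others at both passages. The log2 fold change against Serum/LIF was −0.91 (edgeR adjusted p = 5.66e-09, SE 0.07) at P10 and −1.05 (edgeR adjusted p = 1.10e-09, SE 0.07) at P20.

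Spred1 (chr2:117121374-117182279) had 1589, 1588 and 1418 normalized counts in Serum/LIF, 2701, 2545 and 2307 in EMM and 885, 945 and 1242 in 2i/LIF at P10. At P20 it had 1687, 1821 and 1688 normalized counts in Serum/LIF, 2133, 2061 and 2056 in EMM and 785, 723 and 827 in 2i/LIF. It was the least changed of the inhibitors at P10, and the 2i/LIF libraries still lay below those of the other media. Against Serum/LIF, its log2 fold change in 2i/LIF was −0.57 (edgeR adjusted p = 9.15e-05, SE 0.10) at P10 and −1.16 (edgeR adjusted p = 3.26e-08, SE 0.10) at P20.

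The ETS factors are transcriptional effectors downstream of FGF receptors. Etv4 (chr11:101769742-101785371) had 899.8, 723 and 680.2 normalized counts in Serum/LIF, 1631, 1679 and 1516 in EMM and 278, 173 and 239 in 2i/LIF at P10. Its P20 libraries held 1376, 1251 and 1273 normalized counts in Serum/LIF, 739, 709 and 634 in EMM and 761, 816 and 636 in 2i/LIF. In 2i/LIF it lay below both other media at P10, but at P20 the EMM and 2i/LIF libraries overlapped and only those of Serum/LIF stood above. The log2 fold change in 2i/LIF against Serum/LIF was −1.74 (edgeR adjusted p = 7.35e-09, SE 0.14) at P10 and −0.82 (edgeR adjusted p = 3.59e-05, SE 0.13) at P20.

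Etv5 (chr16:22381309-22439719) was the member with the most reads per length of exon in Serum/LIF and 2i/LIF at both passages. It had 6791, 6491 and 6415 normalized counts in Serum/LIF, 6062, 5472 and 4646 in EMM and 5544, 6801 and 7163 in 2i/LIF at P10, with overlap between 2i/LIF and each of the other media. After 20 passages it had 6765, 7138 and 7115 normalized counts in Serum/LIF, 5870.1, 6064 and 5968 in EMM and 4647, 5955 and 5648 in 2i/LIF, and the Serum/LIF libraries stood above those of 2i/LIF. Its log2 fold change in 2i/LIF against Serum/LIF was −0.01 at P10, with a 95% interval of −0.23 to 0.20 (edgeR adjusted p = 0.92), and −0.37 (edgeR adjusted p = 0.00553, SE 0.10) at P20. Without 2i/LIF replicate 1 or Serum/LIF replicate 2 or 3, the P20 call was lost, with an adjusted p of up to 0.0318.

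Egr1 and Fos are immediate early genes that encode a zinc finger factor and a component of AP-1. Egr1 (chr18:34859823-34864984) had 1448, 1580.4 and 1514 normalized counts in Serum/LIF, 1316, 1016 and 907 in EMM and 3720.0, 3969 and 3383 in 2i/LIF at P10. After 20 passages there were 359, 393 and 427 normalized counts in Serum/LIF, 669, 696 and 638 in EMM and 2.35, 8.87 and 12.5 in 2i/LIF. At P10 the 2i/LIF libraries held the highest values of all groups, and at P20 they held the lowest, with 1 to 13 counts before scaling. The log2 fold change in 2i/LIF against Serum/LIF was 1.28 (edgeR adjusted p = 3.38e-08, SE 0.12) at P10 and −5.40 (edgeR adjusted p = 1.12e-12, SE 0.31) at P20.

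Fos (chr12:85473890-85477273) had 2469.9, 2809.7 and 1998 normalized counts in Serum/LIF, 1121, 1024 and 971 in EMM and 3703, 3154 and 1702 in 2i/LIF at P10. The P20 values were 58.8, 60.0 and 51.3 normalized counts in Serum/LIF, 109, 129 and 151 in EMM and 14.1, 22.9 and 27.8 in 2i/LIF. At P10, 2i/LIF replicate 3 lay below every Serum/LIF library while the other two lay above them all. Its log2 fold change in 2i/LIF against Serum/LIF was 0.23 at P10, with a 95% interval of −0.18 to 0.63 (edgeR adjusted p = 0.313), and without 2i/LIF replicate 3 it was 0.50 (edgeR adjusted p = 0.00411). At P20 it was −1.30 (edgeR adjusted p = 0.00671, SE 0.39), and this call was lost without any 1 of the 6 libraries compared, with adjusted p-values of 0.0107 to 0.0338.

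Ier3 (chr17:35821684-35822923), an early response gene linked to cell survival, had 133, 173 and 158 normalized counts in Serum/LIF, 181, 128 and 163 in EMM and 45.5, 29.0 and 19.5 in 2i/LIF at P10. At P20 it had 158, 140.0 and 138 normalized counts in Serum/LIF, 153, 181 and 159 in EMM and 58.7, 74.6 and 47.9 in 2i/LIF. The 2i/LIF libraries were the lowest at both passages, and the Serum/LIF and EMM libraries overlapped. On the log2 scale Ier3 differed from Serum/LIF in 2i/LIF by −2.37 (edgeR adjusted p = 1.30e-07, SE 0.25) at P10 and −1.25 (edgeR adjusted p = 9.74e-05, SE 0.22) at P20.

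EMM was then set beside 2i/LIF, and this contrast uses the same 2i/LIF libraries as the one against Serum/LIF. At P10, 7 of the 10 genes were lower in 2i/LIF than in EMM and 2 were higher, beside 22.9% lower and 22.2% higher of all genes tested. At P20, 8 were lower and 0 higher by edgeR and by DESeq2, beside 25.7% and 22.9% of all genes by edgeR and 22.8% and 21.0% by DESeq2. Spry4 was 113-fold lower at P10 (log2 fold change −6.82, edgeR adjusted p = 3.62e-16, SE 0.16) and 29.4-fold lower at P20 (−4.88, edgeR adjusted p = 6.06e-15, SE 0.12). Dusp6 was 11.1-fold and 13.6-fold lower, and Dusp4 20.5-fold and 75.3-fold lower, while the median of chromosome 8 at P20 was 0.29 on the log2 scale. For Spry2, Spred1 and Ier3 the log2 fold changes were −1.59, −1.29 and −2.40 at P10 and −1.31, −1.42 and −1.43 at P20, and the largest edgeR adjusted p among these was 1.62e-05. Etv4 fell by 2.81 on the log2 scale at P10 (edgeR adjusted p = 1.76e-11), while at P20 its value was 0.09 with a 95% interval of −0.19 to 0.36. Etv5 did not pass at either passage (0.27, edgeR adjusted p = 0.0345, SE 0.10, and −0.14, edgeR adjusted p = 0.265, SE 0.10). Without 2i/LIF replicate 1 its P10 value was called (0.37, edgeR adjusted p = 0.00468). Egr1 and Fos were higher in 2i/LIF at P10, with log2 fold changes of 1.76 (edgeR adjusted p = 9.19e-10, SE 0.12) and 1.45 (edgeR adjusted p = 6.89e-06, SE 0.20). At P20 both were lower, with values of −6.17 (edgeR adjusted p = 7.95e-14, SE 0.31) and −2.48 (edgeR adjusted p = 3.43e-06, SE 0.36).

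**Figure D2:**
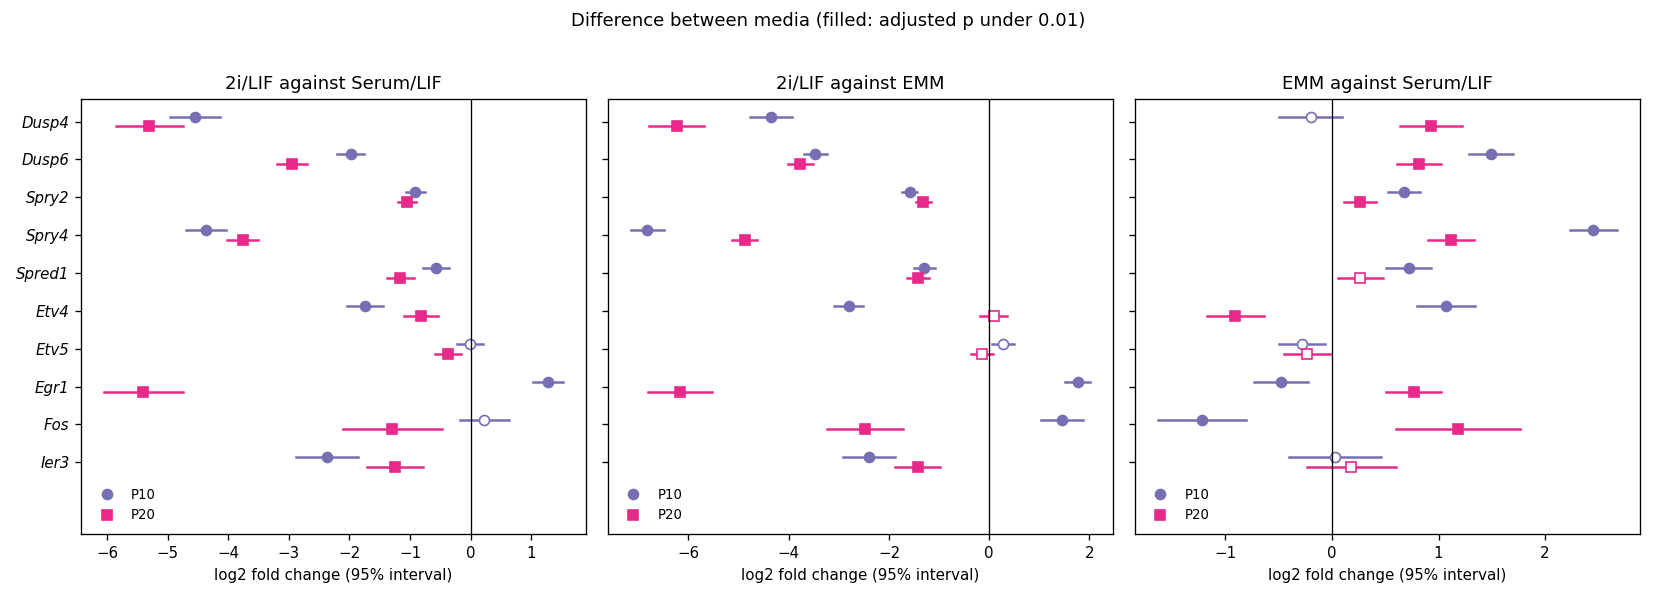
Log2 fold changes (points) with 95% intervals (bars) of the 10 genes for each pair of media at P10 (circles) and P20 (squares), from the edgeR fit; filled symbols have an adjusted p under 0.01, and the 3 horizontal axes differ. The first 5 genes lie left of 0 in both 2i/LIF panels, Egr1 changes side between the passages in all 3 panels, and in the EMM panel Spry4 at P10 lies farthest right, at 2.45.

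EMM differs from Serum/LIF in its carbon source and holds no MEK inhibitor. At P10, 5 of the 10 genes were higher in EMM and 2 were lower, beside 18.7% higher and 18.7% lower of all genes tested. At P20, 6 were higher and 1 lower, beside 13.6% and 12.5% of all genes. The median log2 fold change of the members was 0.36 at P10 and 0.52 at P20, against 0.01 and 0.00 over all genes tested. When a fold past 1 in size on the log2 scale was also required, 4 members were called at P10, beside 17.1% of all genes in either direction, and 2 at P20, beside 9.63%. The largest rises at P10 were those of Spry4 and Dusp6. There, Spry4 was 5.48-fold and Dusp6 2.81-fold higher.

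At P10 the log2 fold change was 2.45 (edgeR adjusted p = 8.07e-12, SE 0.11) for Spry4 and 1.49 (edgeR adjusted p = 1.39e-09, SE 0.10) for Dusp6. Etv4, at 1.07 (edgeR adjusted p = 2.22e-06, SE 0.13), also rose past 1. Spred1 and Spry2 rose by less, at 0.72 (edgeR adjusted p = 1.13e-05, SE 0.10) and 0.68 (edgeR adjusted p = 3.54e-07, SE 0.07). Fos and Egr1 went the other way, with −1.22 (edgeR adjusted p = 5.69e-05, SE 0.20) for Fos and −0.48 (edgeR adjusted p = 0.00291, SE 0.12) for Egr1. The Egr1 call was lost without EMM replicate 2 or 3 or Serum/LIF replicate 2, with an adjusted p of up to 0.0214. Dusp4 (−0.20, edgeR adjusted p = 0.25), Ier3 (0.03, 0.918) and Etv5 (−0.28, 0.031) did not pass the test, although the 3 EMM libraries of Etv5 lay below those of Serum/LIF. DESeq2 (adjusted p = 0.00651), edgeR with library totals (0.00837) and edgeR with no filter on low counts (0.00103) did call Etv5 lower.

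At P20, Spry4 was again higher in EMM, by 1.12 (edgeR adjusted p = 2.39e-07, SE 0.10) on the log2 scale. Dusp4 and Dusp6 were both higher, at 0.93 (edgeR adjusted p = 4.42e-05, SE 0.14) and 0.82 (edgeR adjusted p = 4.78e-06, SE 0.10). Fos and Egr1, lower in EMM at P10, were now higher, at 1.18 (edgeR adjusted p = 0.00207, SE 0.28) and 0.77 (edgeR adjusted p = 9.88e-05, SE 0.12). The Fos call was lost without EMM replicate 3 or Serum/LIF replicate 3, with an adjusted p of up to 0.0112. Spry2 rose by 0.26 (edgeR adjusted p = 0.00614, SE 0.07), a call that was lost without any 1 of the 6 libraries, with an adjusted p of up to 0.0268. Etv4 was lower in EMM at P20, at −0.91 (edgeR adjusted p = 2.60e-05, SE 0.13). Spred1 (0.27, edgeR adjusted p = 0.0421, SE 0.10), Etv5 (−0.23, edgeR adjusted p = 0.0855, SE 0.10) and Ier3 (0.18, edgeR adjusted p = 0.499, SE 0.20) did not pass, and the edgeR fit of these 2 groups alone called Spred1 (adjusted p = 0.00178) and Etv5 (0.00117).

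Other genes of the pathway were counted from lists, and none of these lists holds a member. The shares of all genes beside the list counts in 2i/LIF against Serum/LIF were 25.6% lower and 26.4% higher at P10. At P20 they were 23.2% and 21.0%. In EMM against Serum/LIF, 18.7% were lower and 18.7% higher at P10 and 12.5% and 13.6% at P20. Largest rises and falls of a list are named among genes with a mean of at least 50 normalized counts in 1 group. Of 13 other feedback inhibitors, 7 were lower and 3 higher in 2i/LIF than in Serum/LIF at P10, and 8 lower and 0 higher at P20. The list's median log2 fold change was −0.61 and −0.98 (in each list, a gene with at most 3 counts in every library of 1 of the groups stands at the value that a floor of 3 counts sets, and a gene that low in both groups was left out). Dusp9, a phosphatase of ERK, had 2067 ± 216 normalized counts (SD, n = 3) in Serum/LIF and 102 ± 16.02 in 2i/LIF at P10, or −4.35 (edgeR adjusted p = 1.98e-14, SE 0.13) on the log2 scale. Dusp5, a nuclear ERK phosphatase, fell the most of the list at P20, at −4.20 (edgeR adjusted p = 2.44e-12, SE 0.20). Spry1, a further Sprouty, was lower at both passages, at −1.32 (edgeR adjusted p = 8.05e-08, SE 0.13) and −2.23 (edgeR adjusted p = 4.58e-10, SE 0.15). Dusp1 was higher at P10 (0.87) and lower at P20 (−0.38, edgeR adjusted p = 0.00818). In EMM against Serum/LIF, 7 of these 13 genes were lower and 0 higher at P10, and 3 were lower and 2 higher at P20. Among those with a mean of at least 50 normalized counts in 1 group, Dusp9 fell the most at both passages, at −2.13 (edgeR adjusted p = 3.52e-11, SE 0.11) and −1.49 (edgeR adjusted p = 6.67e-09, SE 0.10).

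Of 29 other early and delayed targets, 27 passed the filter, and 14 were lower and 4 higher in 2i/LIF than in Serum/LIF at P10, and 15 and 3 at P20. Their median log2 fold change was −0.63 and −0.61. Among those with a mean of at least 50 normalized counts in 1 group, Fosl2, an AP-1 component, fell the most at both, at −5.12 (edgeR adjusted p = 8.26e-11, SE 0.35) and −4.07 (edgeR adjusted p = 7.83e-10, SE 0.29). Epha4, an ephrin receptor, rose the most, at 1.84 (edgeR adjusted p = 2.50e-11, SE 0.10) and 1.096 (edgeR adjusted p = 2.45e-08, SE 0.10). Myc was lower at both passages, at −2.29 and −2.45, whereas Ccnd1, which encodes cyclin D1, was higher, at 0.88 and 1.03. In EMM against Serum/LIF, 7 of the list rose and 11 fell at P10, and 3 rose and 10 fell at P20. Atf3, a stress-induced factor, fell the most at both passages, at −4.25 (edgeR adjusted p = 2.01e-08, SE 0.38) and −1.998 (edgeR adjusted p = 1.27e-04, SE 0.34). Etv1, the third member of the Etv4 and Etv5 family, rose the most at P10, by 1.78 (edgeR adjusted p = 3.34e-09, SE 0.13).

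Upstream of ERK lie the genes of the cascade itself. Of 21 genes from adaptor to kinase, 5 were lower and 4 higher in 2i/LIF than in Serum/LIF at P10, with a median log2 fold change of 0.01, and 3 lower and 4 higher at P20, with a median of 0.07. Hras, which encodes a RAS protein, fell the most of these, at −1.001 (edgeR adjusted p = 1.17e-05, SE 0.15) at P10. Mapk3, which encodes ERK1, was lower at both passages (−0.69, edgeR adjusted p = 2.07e-05, SE 0.11, and −0.67, edgeR adjusted p = 3.43e-05, SE 0.11). The targets of the inhibitor, Map2k1 and Map2k2, which encode MEK1 and MEK2, had values of −0.17 and 0.01 at P10 and −0.16 and 0.53 at P20, of which only the P20 value of Map2k2 passed (edgeR adjusted p = 0.00787).

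Of 12 FGF ligands and receptors, 8 were lower and 3 higher in 2i/LIF at P10, and 7 and 2 at P20. The median log2 fold change of these genes was −2.15 and −2.49. Fgf4, the autocrine ligand, was slightly higher at P10 (0.40, edgeR adjusted p = 1.85e-04, SE 0.08) and did not pass at P20 (0.22, edgeR adjusted p = 0.0193). Fgfr1 was lower at P10 (−0.55) and higher at P20 (0.68), and Fgfr2 was lower at both (−3.30, edgeR adjusted p = 3.99e-11, SE 0.19, and −4.88, edgeR adjusted p = 6.17e-12, SE 0.28). Fgf5, which marks the primed epiblast, had 167 ± 20.3 normalized counts (SD, n = 3) in Serum/LIF and 5.29 ± 3.18 in 2i/LIF at P10. At P20 it had 40.5 ± 9.12 in Serum/LIF and 0 counts in every 2i/LIF library, which is at least 10.0-fold lower against a floor of 3 counts per library. In EMM, Fgf4 was higher than in Serum/LIF at P10 (0.92, edgeR adjusted p = 1.76e-08, SE 0.08) and at P20 (0.28, edgeR adjusted p = 0.0068, SE 0.07).

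Measures of other cell states moved with the media and are given beside these results. Axin2, a target of beta-catenin and so a readout of the GSK3 inhibitor, was higher in 2i/LIF by 3.30 (edgeR adjusted p = 4.59e-11, SE 0.17) at P10 and 1.71 (edgeR adjusted p = 2.03e-07, SE 0.17) at P20. Of 10 beta-catenin targets, 9 passed the filter, and at P10 7 of these were higher in 2i/LIF and 0 lower, and at P20 3 and 3. The summed level of 8 fibroblast markers was 2299 to 2725 normalized counts at P10 and 3669 to 7262 at P20 in Serum/LIF, against 87.1 to 117 and 122 to 124 in 2i/LIF and 328 to 386 and 193 to 230.0 in EMM. Of these markers, Lum had at most 3 counts in every Serum/LIF library, and Col3a1, Dcn and Postn in every 2i/LIF library. The sum of 10 mesoderm and primed epiblast markers was 11507 to 12967 at P10 and 6842 to 7590.1 at P20 in Serum/LIF, 3855 to 5091 and 7186 to 7900.1 in EMM, and 2396 to 3304 and 1654 to 2364 in 2i/LIF, with Cer1 at 3 counts or fewer in all of them. The sum of 13 primitive endoderm markers lay between 12652 and 20562 over all groups, with the highest libraries in EMM at P10. Of the 12 of these tested, however, 7 were lower and 4 higher in 2i/LIF than in Serum/LIF at P10, with a median log2 fold change of −0.99, and 6 and 2 at P20, with a median of −1.15. Against EMM, 4 were lower and 3 higher in 2i/LIF at P10, and 8 and 3 at P20. The shares of all genes there were 22.9% lower and 22.2% higher at P10 and 25.7% and 22.9% at P20. Of 8 pluripotency markers, 4 were higher and 1 lower in 2i/LIF than in Serum/LIF at P10 and 2 and 1 at P20. In EMM against Serum/LIF, 4 of these were higher and 0 lower at P10 and 0 and 4 at P20, with Nanog at −1.11 (edgeR adjusted p = 4.41e-07, SE 0.11) at P20, and the interaction term called 7 lower at P20 and 0 higher, beside 6.43% and 8.28% of all genes. Their summed level in EMM was 85026 to 115534 normalized counts at P10 and 61327 to 63111 at P20, against 66178 to 72083 and 71882 to 78061 in Serum/LIF. The part of these markers in the differences between media and passages was not tested.

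Between passages, some members moved in each medium, and of the 10 genes Fos moved the most in Serum/LIF and EMM and Egr1 in 2i/LIF. In Serum/LIF, 3 of the 10 genes were lower at P20 than at P10 and 2 higher, beside 2.85% and 3.16% of all genes tested. In EMM, 4 were lower and 0 higher, beside 11.9% and 13.3%, and DESeq2 called 6 lower and 1 higher, beside 14.6% and 15.2% of the genes it tested. In 2i/LIF, 5 were lower and 3 higher, beside 15.2% and 13.1%. When the fold also had to exceed 1 in size on the log2 scale, 3 were called in Serum/LIF, 2 in EMM and 7 in 2i/LIF, beside 1.84%, 8.54% and 10.1% of all genes in either direction. Fos was 42.4-fold lower at P20 in Serum/LIF, 8.003-fold in EMM and 122-fold in 2i/LIF, and Egr1 was 3.86-fold, 1.63-fold and 397-fold lower.

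**Figure D3:**
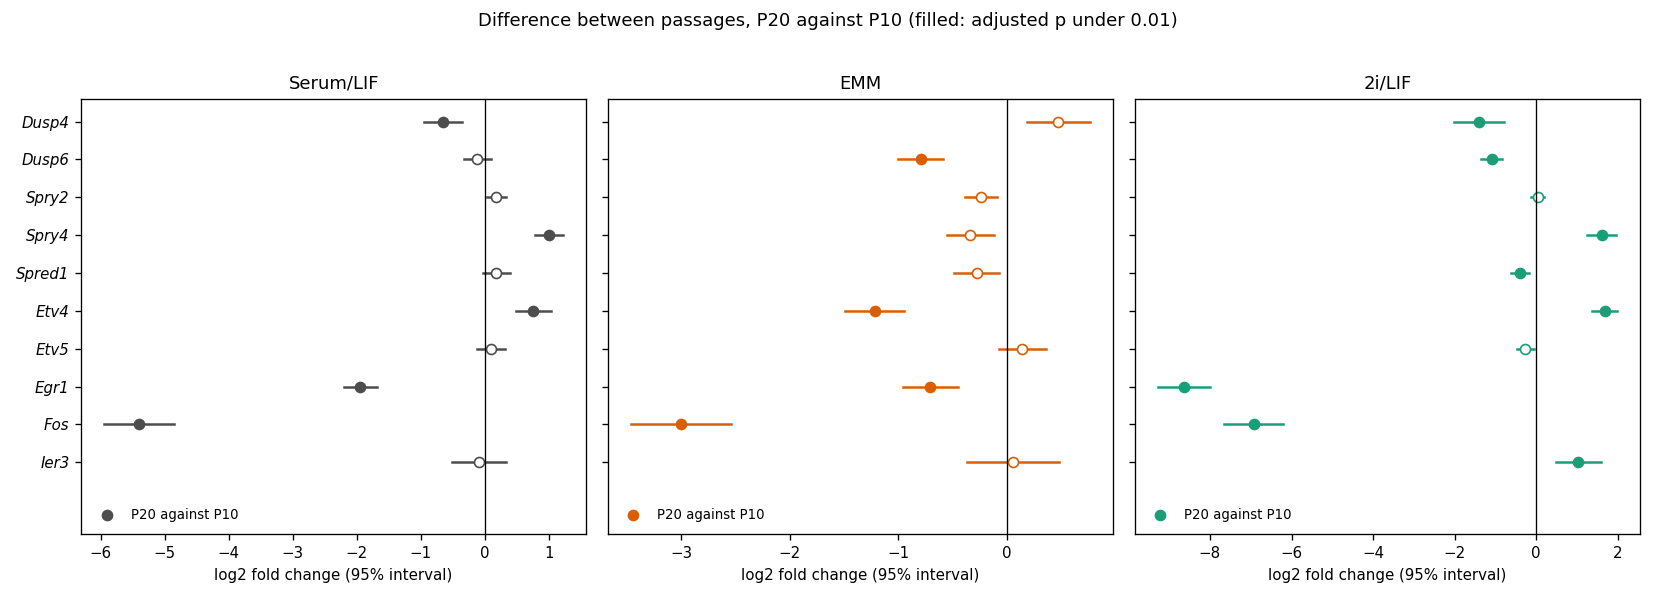
Log2 fold changes at P20 against P10 (points) with 95% intervals (bars) of the 10 genes in Serum/LIF, EMM and 2i/LIF, from the edgeR fit; filled points have an adjusted p under 0.01, and the 3 horizontal axes differ. Fos lies far left of 0 in all 3 media and Egr1 reaches −8.63 in 2i/LIF, while Spry4 and Etv4 lie right of 0 in Serum/LIF and 2i/LIF and left of it in EMM.

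The log2 fold change of Fos at P20 against P10 was −5.40 (edgeR adjusted p = 3.47e-10, SE 0.26) in Serum/LIF, −3.00 (edgeR adjusted p = 2.57e-08, SE 0.22) in EMM and −6.93 (edgeR adjusted p = 3.27e-11, SE 0.35) in 2i/LIF. For Egr1 it was −1.95 (edgeR adjusted p = 3.00e-08, SE 0.12), −0.70 (edgeR adjusted p = 2.05e-04, SE 0.12) and −8.63 (edgeR adjusted p = 2.98e-15, SE 0.31). In each medium, no P20 library of either gene reached the level of a P10 library. Fosb, picked as the gene most like Fos in level over these same 18 libraries, so that its values only describe it, had log2 fold changes at P20 against P10 of −6.49 in Serum/LIF, −3.82 in EMM and −6.87 in 2i/LIF. Of 10 genes induced by cell dissociation and heat, Fosb among them, 3, 4 and 2 were lower at P20 in the same order of media, and 0, 0 and 3 were higher, beside the shares of all genes given above for each medium. Their summed level was 103307 to 105075 normalized counts at P10 and 96483 to 103731 at P20 in Serum/LIF, 98842 to 130027 and 82284 to 85018 in EMM, and 77849 to 96983 and 80482 to 107502 in 2i/LIF, and its part in the fall of Fos and Egr1 was not tested. Harvest dates are not given in the labels, so that passage and the day of harvest cannot be told apart.

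Of the slower members, Dusp6 fell with passage in EMM (−0.79, edgeR adjusted p = 7.58e-06, SE 0.10) and in 2i/LIF (−1.09, edgeR adjusted p = 2.57e-06, SE 0.12), but not beyond the spread in Serum/LIF (−0.12, edgeR adjusted p = 0.451, SE 0.10). Dusp4 fell in Serum/LIF (−0.66, edgeR adjusted p = 0.0045, SE 0.14) and in 2i/LIF (−1.40, edgeR adjusted p = 7.28e-04, SE 0.30), and in EMM its value was 0.48 (edgeR adjusted p = 0.0118, SE 0.14). The edgeR fit of both 2i/LIF groups alone lost the calls of Dusp4 (adjusted p = 0.0436), Spred1 (0.0708) and Ier3 (0.0714) described here. The Serum/LIF call of Dusp4 was lost without P10 replicate 1 or 2 or P20 replicate 1 or 2, with an adjusted p of up to 0.0319. Genes of chromosome 8 had a median of 0.32 at P20 against P10 in 2i/LIF, and Dusp4 stood at −1.73 relative to it. Spry4 rose in Serum/LIF (1.00, edgeR adjusted p = 1.09e-05, SE 0.11) and in 2i/LIF (1.61, edgeR adjusted p = 7.67e-07, SE 0.17). Etv4 rose in the same media, at 0.76 (edgeR adjusted p = 8.58e-04, SE 0.13) and 1.68 (edgeR adjusted p = 1.08e-07, SE 0.14), and fell in EMM, at −1.22 (edgeR adjusted p = 1.53e-06, SE 0.13). In 2i/LIF, Ier3 rose by 1.03 (edgeR adjusted p = 0.00384, SE 0.26) and Spred1 fell by 0.41 (edgeR adjusted p = 0.00474, SE 0.10). Without P10 replicate 3 or P20 replicate 2 both of these calls were lost, that of Ier3 also without P10 replicate 2, and the adjusted p reached 0.0399 and 0.0474. Etv5 was called in 2i/LIF only without P10 replicate 1 (−0.36, edgeR adjusted p = 0.0078). Spry2 and Etv5 did not pass in any medium by the edgeR fit of all libraries, nor Spred1 and Ier3 outside 2i/LIF, and the 3 further genes that DESeq2 called in EMM were Dusp4, Spry2 and Spry4.

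Whether the medium effect itself differed between the passages was tested with an interaction term. For 2i/LIF against Serum/LIF, 5 of the 10 genes differed, 4 with a lower and 1 with a higher value at P20, beside 10.9% and 9.16% of all genes tested. The difference in log2 fold change, P20 less P10, was −6.69 (edgeR adjusted p = 1.16e-11, SE 0.33) for Egr1, −0.97 (edgeR adjusted p = 2.30e-04, SE 0.16) for Dusp6, 0.92 (edgeR adjusted p = 0.0015, SE 0.19) for Etv4, −0.58 (edgeR adjusted p = 0.00525, SE 0.15) for Spred1 and −1.52 (edgeR adjusted p = 0.00989, SE 0.43) for Fos. The Fos call was lost in 10 of the 12 fits that left out 1 library, with an adjusted p of up to 0.0341, and that of Spred1 without P10 2i/LIF replicate 3, P10 Serum/LIF replicate 3, P20 2i/LIF replicate 2 or P20 Serum/LIF replicate 2 (up to 0.0173). Without any 1 of the last 3 of these libraries, 3 of the 10 genes were called, and the share of all genes in those fits was not counted. Egr1 and Fos were the 2 members past both the adjusted p and a difference of 1 in size, beside 9.32% of all genes. Ier3 (1.13, edgeR adjusted p = 0.0137) and Spry4 (0.61, 0.0247) did not pass by edgeR, but DESeq2 called both (adjusted p = 0.00436 and 0.00109), as did edgeR with no filter on low counts (0.00197 and 0.00222). Without P10 2i/LIF replicate 1, edgeR called both as well (adjusted p = 0.00138 and 0.00102), and Ier3 also without P20 2i/LIF replicate 3 (0.00699). Dusp4, Spry2 and Etv5 had 95% intervals of −1.43 to −0.06, −0.35 to 0.08 and −0.66 to −0.05 and did not pass either. The Dusp4 difference was −0.75, or −1.13 relative to the median of chromosome 8 (0.39).

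For EMM against Serum/LIF, 7 of the 10 genes differed between the passages, 4 with a lower and 3 with a higher value at P20, beside 6.43% and 8.28% of all genes tested. The rise of Spry4, Dusp6 and Spry2 in EMM was smaller at P20, with differences of −1.33 (edgeR adjusted p = 3.19e-06, SE 0.15), −0.67 (edgeR adjusted p = 0.00163, SE 0.14) and −0.41 (edgeR adjusted p = 0.00505, SE 0.10) on the log2 scale. The Spry2 call was lost in 10 of 12 fits that left out 1 library, with an adjusted p of up to 0.0206, and with no filter on low counts (0.104). Etv4 changed from a rise to a fall, a difference of −1.97 (edgeR adjusted p = 4.65e-07, SE 0.18). Egr1 and Fos changed from a fall to a rise, with differences of 1.24 (edgeR adjusted p = 3.83e-05, SE 0.17) and 2.40 (edgeR adjusted p = 4.00e-05, SE 0.34). For Dusp4 the difference was 1.13 (edgeR adjusted p = 3.62e-04, SE 0.20).

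The time course followed the first day in EMM. At 3 h, 4 of the 10 genes were higher than at 0 h and 2 lower, beside 16.3% and 18.2% of all genes tested. At 9 h, 4 were higher and 3 lower, beside 18.5% and 19.7%, and at 24 h, 5 were higher and 3 lower, beside 21.8% and 22.2%. The median log2 fold changes of the members, −0.01, 0.15 and 0.15, stayed close to 0. Dusp4 at 3 h was the only member past a log2 fold change of 1 in size at any of the 3 times, beside 1.70% higher and 2.52% lower of all genes past it at 3 h and 5.55% and 8.18% in either direction at 9 and 24 h. The 3 contrasts share the 0 h libraries, and the steps within EMM were tested as well. From 3 to 9 h, 2 members rose and 4 fell, beside 13.7% and 12.9% of all genes, and from 9 to 24 h, 5 members changed, beside 13.0% of all genes. In these steps 0 members changed by more than 1 on the log2 scale, beside 1.75% and 0.573% of all genes.

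Dusp4 had 2038, 2026 and 1958 normalized counts at 0 h, 6617, 6511 and 6487 at 3 h, 3403, 3655 and 3128 at 9 h and 4209.7, 3517 and 3854 at 24 h. It peaked at 3 h and remained above all 0 h libraries at 24 h. The log2 fold change against 0 h was 1.70 (edgeR adjusted p = 3.78e-11, SE 0.06) at 3 h, 0.76 (edgeR adjusted p = 1.30e-07, SE 0.06) at 9 h and 0.94 (edgeR adjusted p = 8.83e-09, SE 0.06) at 24 h. The step from 3 to 9 h was −0.94 (edgeR adjusted p = 4.67e-08, SE 0.06), and the step from 9 to 24 h (0.19, edgeR adjusted p = 0.0375, SE 0.06) did not pass.

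Dusp6 had 3638, 3839.8 and 3597 normalized counts at 0 h, 5495, 5782 and 5524 at 3 h, 4395, 4376 and 4275 at 9 h and 5902, 5547 and 5718 at 24 h. Its level rose, fell back part of the way and rose again, with no overlap between 0 h and any later time. Against 0 h the log2 fold changes were 0.60 (edgeR adjusted p = 1.23e-08, SE 0.04), 0.24 (edgeR adjusted p = 1.20e-04, SE 0.04) and 0.63 (edgeR adjusted p = 3.90e-09, SE 0.04), and the steps were −0.36 (edgeR adjusted p = 3.78e-06, SE 0.04) from 3 to 9 h and 0.40 (edgeR adjusted p = 5.61e-06, SE 0.04) from 9 to 24 h.

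Spry4 had 8224, 8043 and 7755 normalized counts at 0 h, 11637, 11269 and 11209 at 3 h, 9810.3, 9714 and 9066 at 9 h and 9590.0, 9192 and 8808 at 24 h. Like Dusp4 it was highest at 3 h, with log2 fold changes of 0.51 (edgeR adjusted p = 1.79e-07, SE 0.04), 0.25 (edgeR adjusted p = 1.49e-04, SE 0.04) and 0.20 (edgeR adjusted p = 8.65e-04, SE 0.04). The step from 3 to 9 h was −0.25 (edgeR adjusted p = 2.13e-04, SE 0.04). Spry2 stayed between 6839.7 and 7985 in all 12 libraries, and its value at 24 h, 0.13 (edgeR adjusted p = 0.00907, SE 0.04), lost its call without replicate 1 or 3 of either group, with an adjusted p of up to 0.0217. Spred1 had 5239.8, 5314 and 5237 normalized counts at 0 h, 4652, 4749 and 4657 at 3 h, 4713, 4866 and 4442 at 9 h and 6107, 5832 and 5845 at 24 h. It was lower at 3 h (−0.17, edgeR adjusted p = 0.00193, SE 0.04) and 9 h (−0.17, edgeR adjusted p = 0.00145, SE 0.04) and higher at 24 h (0.17, edgeR adjusted p = 0.00122, SE 0.04). Its rise from 9 to 24 h was 0.34 (edgeR adjusted p = 1.77e-05, SE 0.04). The 3 h call was lost without 0 h replicate 2 or 3 h replicate 1 or 3 and the 9 h call without 0 h replicate 2 or 9 h replicate 3, with adjusted p-values of up to 0.0106 and 0.0163.

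**Figure D4:**
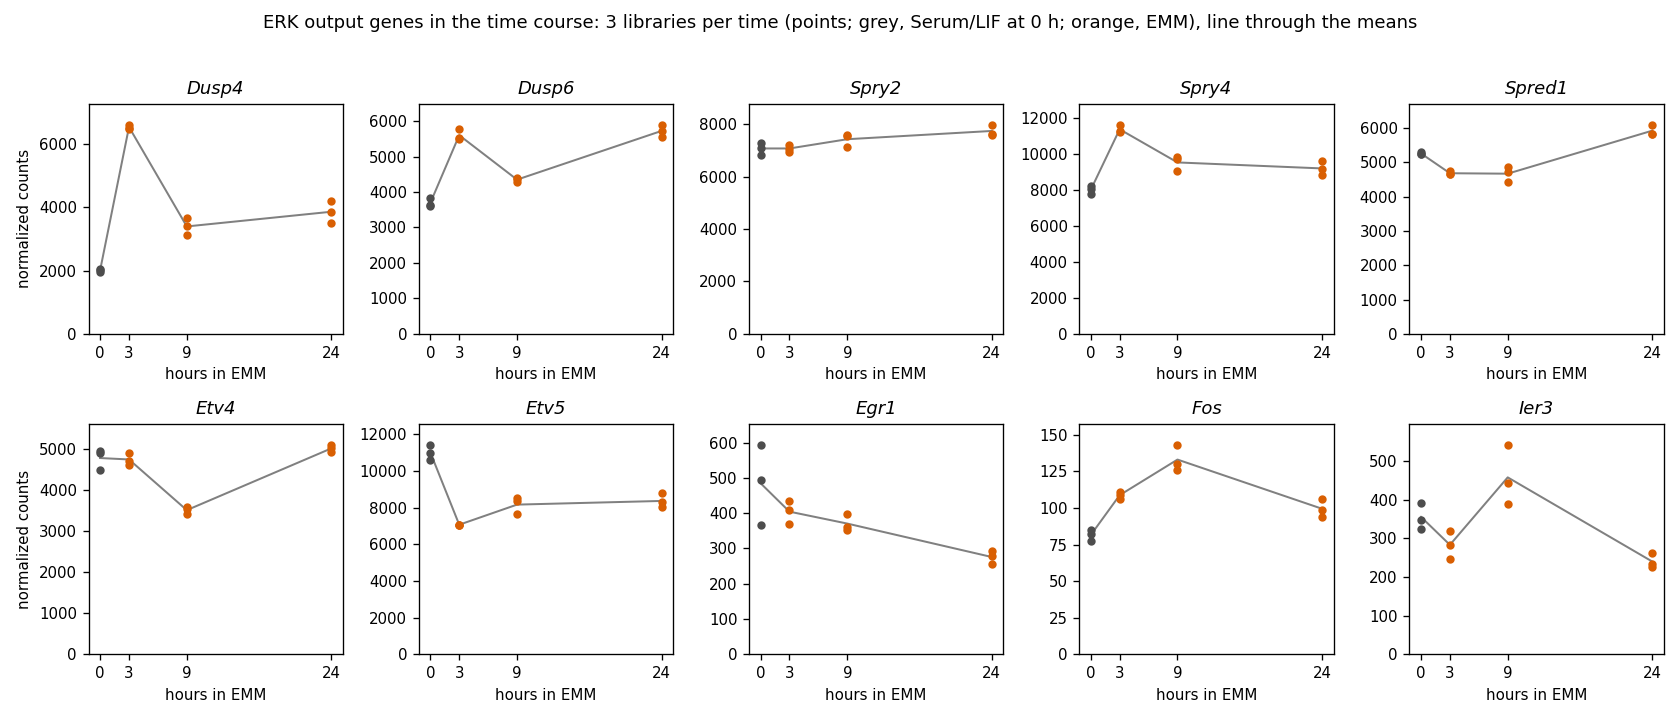
Normalized counts (linear axes that start at 0 and differ between panels) of the 10 genes against hours in EMM, with 1 point per library, 3 libraries per time and a line through the means; grey is Serum/LIF at 0 h and orange EMM. Dusp4, Dusp6 and Spry4 peak or rise at 3 h, Etv5 drops at 3 h and stays below 0 h, Etv4 dips at 9 h, Egr1 is lowest at 24 h, and Fos and Ier3 are highest at 9 h.

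Etv5 had 11419, 10992 and 10624 normalized counts at 0 h, 7073, 7058 and 7071 at 3 h, 8342, 8504 and 7645 at 9 h and 8774, 8283 and 8036 at 24 h. All EMM libraries lay below those of 0 h, and the log2 fold changes were −0.64 (edgeR adjusted p = 3.65e-08, SE 0.05), −0.43 (edgeR adjusted p = 1.73e-06, SE 0.05) and −0.40 (edgeR adjusted p = 2.96e-06, SE 0.05). The partial recovery from 3 to 9 h was 0.21 (edgeR adjusted p = 0.00198, SE 0.05) and lost its call without 9 h replicate 2 (edgeR adjusted p = 0.0129). Etv4 had 4942, 4906 and 4475 normalized counts at 0 h, 4699, 4904 and 4616 at 3 h, 3579, 3533 and 3407 at 9 h and 5093, 4914 and 5021 at 24 h. Against 0 h, Etv4 passed at 9 h alone (−0.45, edgeR adjusted p = 6.71e-07, SE 0.04), with steps of −0.43 (edgeR adjusted p = 2.08e-06, SE 0.04) down to 9 h and 0.51 (edgeR adjusted p = 1.60e-06, SE 0.04) up to 24 h.

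Egr1 had 494, 593 and 367 normalized counts at 0 h, 434, 409 and 369.5 at 3 h, 359.6, 354 and 398 at 9 h and 279, 255 and 293 at 24 h. The 0 h libraries were widely spread, and only the 24 h libraries fell clear of them. Its log2 fold change was −0.82 (edgeR adjusted p = 9.59e-05, SE 0.13) at 24 h, and the values at 3 h (−0.27, edgeR adjusted p = 0.0988, SE 0.13) and 9 h (−0.39, edgeR adjusted p = 0.0192, SE 0.13) passed, among the fits without 1 library, only without 0 h replicate 3, the lowest of the group (edgeR adjusted p = 0.00242 and 3.57e-04). Fos had 82.3, 84.9 and 77.2 normalized counts at 0 h, 111, 106 and 109 at 3 h, 126, 129.8 and 143 at 9 h and 106, 98.5 and 93.5 at 24 h. It was higher at 3 h (0.41, edgeR adjusted p = 0.00355, SE 0.10) and 9 h (0.70, edgeR adjusted p = 2.99e-05, SE 0.10), and the step from 9 to 24 h was −0.42 (edgeR adjusted p = 0.00512, SE 0.09). Its value at 24 h (0.29, edgeR adjusted p = 0.0446, SE 0.10) did not pass. The 3 h call of Fos was lost without replicate 1 or 3 of either group and the 9 to 24 h call without replicate 2 or 3 of either group, with adjusted p-values of up to 0.0172 and 0.0265, and DESeq2 called neither. Ier3 had 349, 393 and 326 normalized counts at 0 h, 320.0, 248 and 282 at 3 h, 389.6, 542 and 443 at 9 h and 262, 225 and 233 at 24 h. Its 3 h libraries lay below those of 0 h, but only its value at 24 h passed against 0 h (−0.57, edgeR adjusted p = 0.00137, SE 0.13), a call lost without 0 h replicate 2 (adjusted p = 0.0109), while the rise from 3 to 9 h (0.69, edgeR adjusted p = 3.12e-04, SE 0.12) and the fall from 9 to 24 h (−0.93, edgeR adjusted p = 8.88e-05, SE 0.12) both passed. With no filter on low counts, edgeR also called Egr1 lower at 9 h (adjusted p = 1.08e-04) and Ier3 lower at 3 h (0.0041) and higher at 9 h (7.13e-05). The 9 h value of Ier3 was also called without 9 h replicate 1 (0.48, edgeR adjusted p = 0.00402).

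Over the rest of the pathway at 24 h, 5 of the 12 other feedback inhibitors tested were higher and 6 lower. Beside this and the list counts that follow, 21.8% of all genes tested were higher and 22.2% lower. Of the 29 other targets, 11 were higher and 6 lower, of the 21 cascade genes 4 and 4, and of the 11 FGF genes tested 1 and 7. Dusp2, a nuclear phosphatase, fell the most of the feedback list, at −1.65 (edgeR adjusted p = 2.53e-06, SE 0.20), Fosl1 of the targets, at −1.05 (edgeR adjusted p = 1.17e-04, SE 0.18), and Fgf15 of the FGF genes, at −2.26 (edgeR adjusted p = 4.83e-10, SE 0.12). Ccnd1 fell, at −0.97 (edgeR adjusted p = 2.34e-10, SE 0.05), as did Myc at −0.26 (edgeR adjusted p = 2.96e-04, SE 0.05) and Mapk3 at −0.43 (edgeR adjusted p = 6.15e-05, SE 0.07), and Fgf4 did not pass (−0.06, edgeR adjusted p = 0.169). Of 13 primitive endoderm markers, 9 were higher and 1 lower at 24 h, and of 9 mesoderm and primed epiblast markers tested, 0 were higher and 5 lower. The summed level went from 27377 to 29112 at 0 h to 32262 to 34504 normalized counts at 24 h for the endoderm markers and from 22351 to 22697 to 8783 to 9124 for the others, with Cer1 at 3 counts or fewer at every time. Their part in the members' values was not tested.

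The members were last compared with each other. Over the 18 libraries of the long-term cultures, which share media and passages, Pearson's r of depth-scaled log2 counts between members was above 0 in 37 of 45 pairs, with a median of 0.54. Dusp4, Dusp6, Spry2, Spry4 and Spred1 were alike, with r from 0.89 for Dusp4 and Spry4 to 0.98 for Spry2 and Spry4. Egr1 and Fos were alike at 0.85, and Etv4 and Fos the least alike at −0.35. Over the 12 libraries of the time course, 22 of 45 pairs were above 0, and the lowest r was that of Dusp4 and Etv5, at −0.92. Outside the set, the gene most like a member over the 18 libraries was Micu2 for Dusp4 (r = 0.99), Dpysl3 for Dusp6 (0.99), Cry1 for both Spry2 (0.99) and Spry4 (0.99), Plk3 for Spred1 (0.98), Fhl1 for Egr1 (0.98) and Fosb for Fos (0.92). Over the 12 libraries of the time course it was Inf2 for Dusp4 (0.99), Htra1 for Dusp6 (0.99) and Ube2q1 for Spry4 (0.99). These correlations describe the libraries and were not tested.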

How the data were processed

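Gene expression was measured by bulk RNA-seq in 18 libraries of long-term cultures and 12 libraries of the time course. The time course table holds raw read counts per gene that the authors deposited, and the labels name STAR and featureCounts with the mm10 genome. The table of long-term cultures holds estimated counts that the authors deposited (STAR and Salmon, mm10), of which 9.98% were not whole, and these were rounded. The study's methods also name HTSeq, so the counting tool of each table is not certain, and versions and annotation are not given in the sources used here. Both tables were scaled by TMM, filtered with filterByExpr at its default settings and tested per experiment with all groups in 1 model (edgeR 4.0.16 quasi-likelihood F test, R 4.3.3, 2-sided). The Benjamini-Hochberg adjustment ran over every gene tested in a comparison, the threshold on the adjusted p was 0.01, and the study's further threshold of 1 on the log2 fold change was counted as well. The fit also gave the standard errors and 95% intervals. To normalize, each count was brought to the mean effective library of its experiment, and RPKM used merged exon lengths of GENCODE (GRCm38), which may differ from the authors' annotation. The test was also run on simulated counts with known folds, and the outcome is not reported here. Their spread was drawn from the trend of the fit, so outlying or paired libraries were not covered.

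The members and the lists were chosen with earlier results of these data known, and the symbols alone decided membership. The lists were 13 other feedback inhibitors, 29 other early and delayed targets (of which Ccn1 and Ccn2 were matched through synonyms), 12 FGF ligands and receptors, 21 cascade genes, 10 beta-catenin targets, 13 primitive endoderm markers, 10 mesoderm and primed epiblast markers, 8 fibroblast markers, 8 pluripotency markers and 10 dissociation and heat stress genes. Fosb, Atf3, Jun and Ier2 stand both among the targets and among the dissociation genes. From these lists the text names the largest rise and the largest fall past both thresholds with a mean of at least 50 normalized counts in 1 group, of which a selection is printed, and 13 genes whatever their values (Fgf4, Fgf5, Fgfr1, Fgfr2, Map2k1, Map2k2, Mapk3, Axin2, Spry1, Dusp1, Myc, Ccnd1 and 1 that is not reported here), while Fosb is named as the gene most like Fos.

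The alternatives were DESeq2 1.42.0, its size factors, library totals, other filters, unrounded counts, the 2 groups alone, other thresholds, the chromosome median, leaving out each library and a block by replicate number. Replicate numbers paired the libraries of 2i/LIF at P10 and P20, where the deviations of same-numbered libraries from their group means correlated at r = 0.13 to 0.30. At P20, each 2i/LIF and Serum/LIF library was also most like its same-numbered one, but only at r = 0.06 to 0.07. This held nowhere else. The promoter windows came from RefSeq. Counting error sets the precision of low counts such as those of Egr1 in 2i/LIF at P20, and replicate libraries came from independent experiments.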

Additional observations from a re-analysis of the deposited data

Results flagged for a closer look

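Effects that differed between the passages by the interaction term are listed first, as log2 differences, P20 less P10. For 2i/LIF against Serum/LIF the effect differed by −0.97 for Dusp6, −0.58 for Spred1, 0.92 for Etv4, −6.69 for Egr1 and −1.52 for Fos. For EMM against Serum/LIF it differed by 1.13 for Dusp4, −0.67 for Dusp6, −0.41 for Spry2, −1.33 for Spry4, −1.97 for Etv4, 1.24 for Egr1 and 2.40 for Fos.

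In the time course, the effect of EMM differed between 3 and 9 h by −0.94 for Dusp4, −0.36 for Dusp6, −0.25 for Spry4, −0.43 for Etv4, 0.21 for Etv5 and 0.69 for Ier3. Between 9 and 24 h it differed by 0.40 for Dusp6, 0.34 for Spred1, 0.51 for Etv4, −0.42 for Fos and −0.93 for Ier3.

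Across the experiments, every EMM library of Fos lay above the Serum/LIF libraries at 24 h (0.29, not called, edgeR adjusted p = 0.0446) and below them at P10 (−1.22). Every EMM library of Egr1 lay below the Serum/LIF libraries at 24 h (−0.82) and above them at P20 (0.77). Neither difference was tested, because the tables were made and scaled separately.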

How the results depend on the processing

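Of 2450 values of members under alternatives, 2270 kept their direction and their side of the threshold, 95 lost a call and 35 gained one. No called value changed direction, whereas 39 values that were not called did, all of them at most 0.23 in size on the log2 scale in the edgeR fit. Subtracting the chromosome median moved 12 values by more than the standard error, of which 1, Spry2 for the difference of the 2i/LIF effect, changed sign (from −0.14 to 0.02). Requiring a log2 fold change above 1 in size as well left 4 calls in EMM against Serum/LIF at P10 and 2 at P20, 3 at P20 against P10 in Serum/LIF and 2 in EMM, 2 for the difference of the 2i/LIF effect, 1 at 3 h, and 0 at 9 h, at 24 h and for the steps from 3 to 9 h and from 9 to 24 h. In EMM at P20 against P10, where edgeR called 4 genes, DESeq2 called 7, a threshold of 0.05 gave 8 and the fit of these 2 groups alone 8, beside 29.8%, 39.1% and 33.6% of all genes. In 2i/LIF the fit of both passages alone called 5 genes in place of 8, beside 13.1% of all genes. The cause of these differences was not tested, apart from the thresholds themselves. Library totals shifted the median of all genes by −0.12 in 2i/LIF against Serum/LIF at P20, and no other scaling moved it by over 0.1.

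Without any 1 library, the counts of calls ran from 8 to 9 in 2i/LIF against Serum/LIF at P10 and 8 to 9 at P20, 9 to 10 and 8 to 8 against EMM, and 6 to 7 and 5 to 6 in EMM against Serum/LIF. At P20 against P10 they ran from 4 to 5 in Serum/LIF, 4 to 4 in EMM and 6 to 9 in 2i/LIF. For the differences between passages they ran from 3 to 6 for 2i/LIF and 6 to 7 for EMM. In the time course they were 4 to 6 at 3 h, 6 to 8 at 9 h, 7 to 8 at 24 h, 5 to 6 from 3 to 9 h and 4 to 5 from 9 to 24 h. The share of all genes called was not counted in the fits without 1 library.

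A replicate block by the numbers of the sample titles was also fitted. With it, 6 genes were called in EMM against Serum/LIF at P20 in place of 7, beside 25.1% of all genes. The one lost was Spry2. The other 15 counts kept their values, the 8 calls between the paired 2i/LIF passages among them. In the time course the library names carry other numbers than the titles, and a block by those called 4, 7 and 8 genes at 3, 9 and 24 h and 6 and 4 for the steps. Without a block these counts were 6, 7, 8, 6 and 5, beside 34.5%, 38.2%, 44.0%, 26.5% and 13.0% of all genes. The fit of 2 groups alone was not run for the differences between passages, which need 4 groups. Low counts limit the precision of Egr1 in 2i/LIF at P20, with 1 to 13 counts.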
